A study of Mus musculus with 4 samples.

Results

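The chromatin modifier genes described here are 31 mouse genes that encode DNA methyltransferases, TET dioxygenases, histone methyltransferases, a histone demethylase, acetyltransferases, deacetylases and nucleosome remodellers. They were chosen by name from 21896 protein-coding genes, with earlier results of these data known. Accessible regions were assigned to them by position. A differentially accessible region belonged to a gene when its midpoint lay inside the gene, within 1 kb of its start or end, or outside all genes with that gene as the nearest within 100 kb. The 6 deposited tables, each a comparison of 2 of 4 T helper populations, held 411 such entries of 92372, which merged into 225 distinct regions of 52537.

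Accessibility was measured by ATAC-seq, in which a transposase cuts open chromatin, in mice sensitised and challenged with house dust mite (HDM) extract through the nose. Th2 cells (CD44+ ST2+ CD30L+), Treg cells (CD25hi CD30L-) and other effector cells, which are memory cells outside the Th2 gate (CD44+ ST2- CD30L+), were CD3+ CD4+ cells sorted from lung with airways on day 15. Naive cells (CD3+ CD4+ CD44lo CD62Lhi) came from the mediastinal lymph node of these mice, per the labels' protocols, although their source label names lung and airways. The protocols give 3 biological replicates of 1000 cells for each population, and the descriptions of the other effector and naive samples carry D10 where the titles say day 15. ST2, the IL-33 receptor chain, was used both to sort Th2 cells and to exclude them from the other effector gate. Each comparison with naive cells is also a comparison of lung with lymph node, and population and tissue cannot be told apart there. In sorted pools, a region open in fewer cells and a region less open in each cell cannot be told apart either.

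The tables give for each region only a position and a fold, which is the authors' own value, with no count, replicate or p-value. Depth is therefore unknown, no error can be attached to a fold, and no value per sample can be given. A region counts as higher in a population when the authors' table for that comparison listed it so. Absence from a table does not show that accessibility was alike. Fold sizes below are absolute log2 folds with the higher population named, and the 6 comparisons share libraries, so folds of 1 region in several tables are not separate measurements. The overall sign of the folds was read from the naive, Th2 and Treg marker genes. Their directions are thus no separate evidence for the population labels. Of 6 Th2 marker genes, 5 had regions more open in Th2 than in naive cells (27 regions, Gata3 having none). For Treg cells, 5 of 5 marker genes had regions higher in Treg than in naive cells (19 regions). All 6 naive marker genes had regions higher in naive than in Th2 cells (73 regions, background 11.8%), against 1 region higher in Th2 cells.

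Chromatin modifiers write, erase or read the marks that keep genes accessible or silent. DNMT enzymes methylate cytosines in DNA and TET enzymes oxidise that methylation, Polycomb complexes methylate histone H3 at lysine 27, and acetyltransferases and deacetylases add and remove acetyl groups. In T cells such enzymes are known for fixing cytokine and lineage gene programs once a naive cell has differentiated.

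Of the merged regions of these genes, 66.7% were listed only in comparisons in which other effector cells were lower, close to the 68.5% of all merged regions. Against naive cells, regions higher in Th2 or Treg cells lay mainly upstream of Eed and around Tet2. Regions lower than in naive cells lay mainly inside Arid1b, Tet3, Hdac4, Hdac7, Tet1 and Arid1a. Hdac4 and Arid1a held both kinds (4 and 1 merged regions higher, 3 and 4 lower).

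At the starts of these genes, where transcription begins, most listed regions were those with other effector cells lower. A start is a RefSeq transcription start, and 28 of the 31 genes had at least 1 in the promoter table used (Kdm6b, Hdac1 and Hdac3 had none). Among these 28, 20 carried a region within 1 kb of a start that was lower in other effector than in Th2 cells (71.4%, against a background of 41.4% of 17491 genes). For other effector against Treg cells the count was 21 genes (75.0%, background 37.4%). Either comparison listed a start region for 25 of the 28 genes (89.3%, background 50.3%), and the exceptions were Tet1, Ehmt1 and Hdac9. The share against Th2 cells was below that of 20 housekeeping genes (90.0%) and of 48 other chromatin genes (85.4%), and the share against Treg cells lay between theirs (65.0% for housekeeping and 83.3% for other chromatin genes). High shares at starts were thus also seen for both other lists.

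In the remaining comparisons start regions were listed at few of these genes, and the backgrounds over all genes were low as well. The counts were 0 genes with a start region more open in Th2 than in naive cells (background 2.7%) and 1 gene, Hdac7, with one lower (background 0.943%). No gene had a start region higher in Treg than in naive cells (background 1.25%) or lower (background 0.692%). In other effector cells 4 genes had a start region lower than in naive cells, namely Dnmt3a, Tet1, Hdac7 and Chd4 (14.3%, background 7.8%). Between the lung populations, Hdac7 had a start region higher in Treg than in Th2 cells (background 0.806%), and no gene had one lower (background 2.09%).

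**Figure D1:**
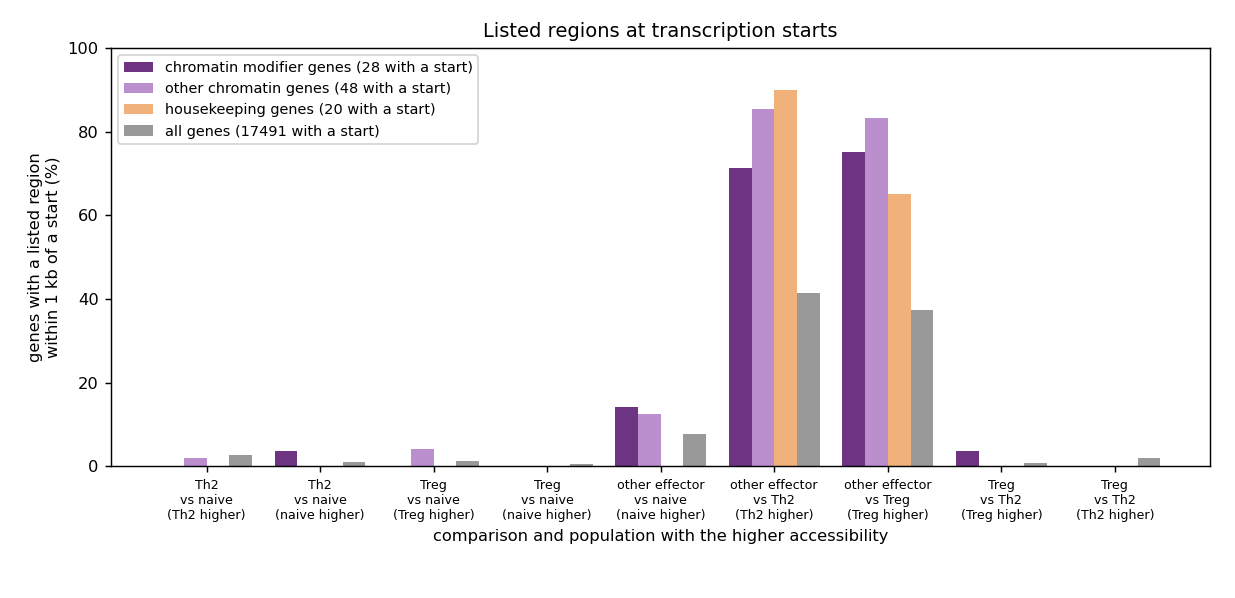
Share of genes (%, y axis) with a listed region within 1 kb of a transcription start, for the 9 comparison directions that list any region (x axis), for the chromatin modifier genes, other chromatin genes, housekeeping genes and all genes with a start. The tall bars stand in other effector versus Th2 and other effector versus Treg, where the 28 chromatin modifier genes reach 71.4% and 75.0%.

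The promoters of 6 genes are shown because their start regions were listed in the most tables or, among ties, with the largest folds. Each is a RefSeq window on GRCm38.p6 from 250 bases before a start to 50 bases after it, written 5′ to 3′ along the gene. They are Hdac7 (chr15:97844453-97844752, minus strand), Dnmt3a (chr12:3891494-3891793, plus strand), Hdac4 (chr1:92180292-92180591, minus strand), Eed (chr7:89980927-89981226, minus strand), Kmt2c (chr5:25498734-25499033, minus strand) and Ezh2 (chr6:47594981-47595280, minus strand). Capitals mark matches, on either strand, to any of 9 short motifs: GGGCGG for SP factors, CCAAT for NF-Y, CCGGAAG for ETS factors, TGTGGT for RUNX factors, TGANTCA for AP-1 factors, AGATAA for GATA factors, CTTTGAT for TCF factors, AAGATGG for the factor YY1 and CCACNAGG for the factor CTCF. Matches of a motif may overlap each other, as SP matches do in the Kmt2c window.
Hdac7: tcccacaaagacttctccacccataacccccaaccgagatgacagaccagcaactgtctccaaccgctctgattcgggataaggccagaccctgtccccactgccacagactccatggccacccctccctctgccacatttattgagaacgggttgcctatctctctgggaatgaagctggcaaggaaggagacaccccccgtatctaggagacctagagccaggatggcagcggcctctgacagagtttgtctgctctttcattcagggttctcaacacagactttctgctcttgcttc
Dnmt3a: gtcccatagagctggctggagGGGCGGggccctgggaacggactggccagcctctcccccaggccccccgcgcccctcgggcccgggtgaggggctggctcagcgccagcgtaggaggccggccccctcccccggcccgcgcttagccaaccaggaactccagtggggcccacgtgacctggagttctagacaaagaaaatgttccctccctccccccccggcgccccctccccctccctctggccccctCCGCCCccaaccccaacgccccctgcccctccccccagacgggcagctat
Hdac4: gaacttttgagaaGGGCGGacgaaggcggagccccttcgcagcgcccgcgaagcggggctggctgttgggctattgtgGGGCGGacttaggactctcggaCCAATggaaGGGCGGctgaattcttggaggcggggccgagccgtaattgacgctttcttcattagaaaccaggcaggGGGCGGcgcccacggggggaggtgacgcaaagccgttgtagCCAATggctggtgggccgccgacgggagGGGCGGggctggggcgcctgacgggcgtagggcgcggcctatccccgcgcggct
Eed: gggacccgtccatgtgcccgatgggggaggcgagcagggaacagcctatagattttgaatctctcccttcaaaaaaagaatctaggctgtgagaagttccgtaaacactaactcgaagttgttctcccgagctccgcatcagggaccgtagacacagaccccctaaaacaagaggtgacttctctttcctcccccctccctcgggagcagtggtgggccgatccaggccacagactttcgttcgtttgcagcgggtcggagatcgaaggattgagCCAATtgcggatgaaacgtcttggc
Kmt2c: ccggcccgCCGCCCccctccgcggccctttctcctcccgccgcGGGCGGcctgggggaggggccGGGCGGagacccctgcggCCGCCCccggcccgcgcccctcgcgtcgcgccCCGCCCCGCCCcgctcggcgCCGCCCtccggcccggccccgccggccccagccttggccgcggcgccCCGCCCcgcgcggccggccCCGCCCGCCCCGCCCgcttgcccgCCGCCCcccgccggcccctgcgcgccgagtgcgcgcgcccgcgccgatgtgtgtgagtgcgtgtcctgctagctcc
Ezh2: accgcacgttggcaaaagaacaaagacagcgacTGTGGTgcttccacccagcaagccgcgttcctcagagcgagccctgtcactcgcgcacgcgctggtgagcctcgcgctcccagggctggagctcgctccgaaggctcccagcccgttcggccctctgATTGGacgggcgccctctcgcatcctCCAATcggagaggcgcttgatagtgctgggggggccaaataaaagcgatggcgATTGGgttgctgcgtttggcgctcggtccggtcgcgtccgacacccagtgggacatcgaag

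The windows differed widely in composition. The Kmt2c promoter was 88.0% G or C and held 12 SP matches, the Dnmt3a promoter was 74.0% G or C with 2, and the Hdac4 promoter was 68.0% with 5 and 2 CCAAT matches. That Hdac4 start is an internal one, 15265 bp inside the annotated gene by the midpoint of its region. The Dnmt3a start shown, at chr12:3891744, is internal too, in a gene that runs from 3801559 to 3914443. The Ezh2 window (64.3% G or C) held 3 CCAAT matches and 1 RUNX match, the Eed window (54.7%) held 1 CCAAT match, and the Hdac7 window (54.7%) held none of the 9 motifs. Hdac7 also differed from the other 5 in that the listed regions near its start did not cover the window itself.

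Over all 33 windows of member promoters that overlapped a listed region (25 genes), the median G and C content was 71.0% and the median ratio of observed to expected CpG was 0.849. The 8 windows that overlapped none (5 genes) had medians of 55.8% and 0.244. Among all 10033 promoter windows over a listed region the medians were 62.0% and 0.794, and among all 21262 windows 56.3% and 0.567. The SP motif was in 28 of the 33 windows (84.8%), against 68.6% of all windows over a listed region and 46.2% of all windows. The AP-1 motif was in 0 of the 33, against 4.45% of all windows over a listed region and 6.99% of all windows. For ETS the share was 6.06%, against 20.0% of all windows over a listed region and 11.6% of all windows. Both shares lay below either background, as did those of CCAAT, RUNX and YY1 given below. In the 8 member windows over no listed region, AP-1 was in 2 (25.0%) and ETS in 0. Among the 33 windows the counts were small, with 2 windows matching ETS and 0 matching AP-1. Some windows of 1 gene overlap, as those of Men1 do. The share was 30.3% for CCAAT (38.6% of all windows over a listed region, 38.2% of all windows), 9.09% for RUNX (11.7%, 15.0%), 6.06% for GATA (5.42%, 9.65%) and 3.03% for TCF (2.24%, 3.22%). For YY1 it was 3.03% (7.16%, 6.24%) and for CTCF 9.09% (5.47%, 5.06%). A further motif, that of NRF1, had no match in the 6 windows shown and was in 6.06% of the 33, or 2 windows, against 2.35% of all windows over a listed region and 1.33% of all windows. A match describes the letters of the window only.

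Across whole loci, all 31 genes had a region in at least 1 table (background 67.0% of all genes). For Th2 against naive cells, 7 of the 31 genes had a region more open in Th2 than in naive cells (22.6%, background 13.7% of all genes) and 10 had one lower (32.3%, background 11.8%). The counts for Treg against naive cells were 7 genes higher (22.6%, background 9.7%) and 9 lower (29.0%, background 8.45%). The tables listed 0 regions of any gene in the series as higher in other effector cells, so those 3 comparisons hold 1 direction only. For other effector against naive cells, 18 of the 31 genes had a region lower (58.1%, background 30.3%). Against Th2 cells, 26 genes had a region lower in other effector cells (83.9%, background 55.4%), and against Treg cells 29 did (93.5%, background 51.5%). In Treg against Th2 cells, 7 genes had a region higher (22.6%, background 5.71%) and 5 had one lower (16.1%, background 10.4%). Counting either direction, 15 genes were listed for Th2 against naive cells (background 22.3%), 13 for Treg against naive cells (background 16.5%) and 9 for Treg against Th2 cells (background 14.8%).

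These genes are long as a set, and the part of gene length in the counts was not tested. Their median length was 52683 bp, against 17149 bp for all protein-coding genes, and 9.36 entries lay inside them per 100 kb of gene, against 5.4 for all genes. The counts above were not adjusted for length, nor for the choice of the genes with earlier results of these data known. The 67 other chromatin genes, a list of further enzymes and subunits, gave 13 genes more open in Th2 than in naive cells (19.4%) and 13 lower (19.4%), 8 higher in Treg than in naive cells (11.9%) and 9 lower (13.4%). Of the same 67 genes, 34 had a region lower in other effector than in naive cells (50.7%), 64 lower than in Th2 cells (95.5%) and 60 lower than in Treg cells (89.6%). In Treg against Th2 cells the list had 6 genes higher (8.96%) and 10 lower (14.9%). No difference between the lists was tested.

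**Figure D2:**
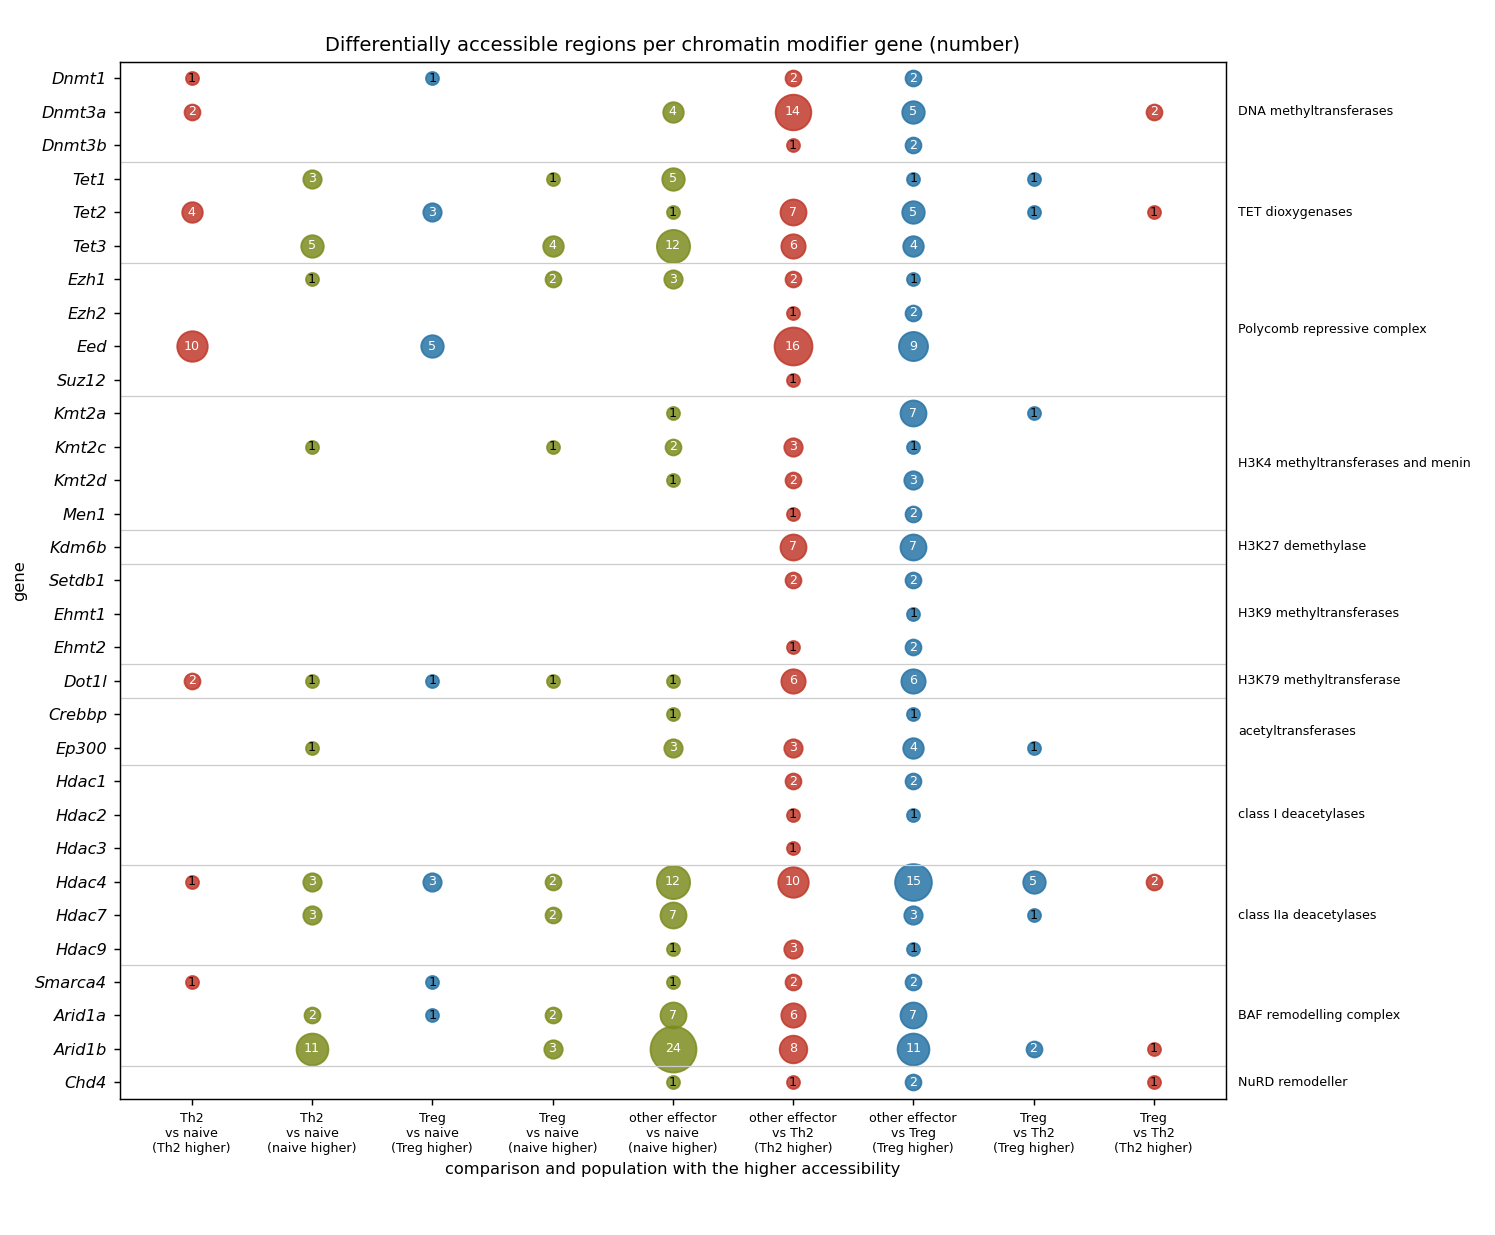
Number of differentially accessible regions (figure in each circle, area growing with the number) for each of the 31 genes, grouped by role (y axis), in each comparison and direction (x axis). Eed has 10 regions more open in Th2 than in naive cells and 5 higher in Treg than in naive cells, while Arid1b has 11 lower in Th2 than in naive cells and 24 lower in other effector than in naive cells.

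Sorted by what they separated, 26 of the 225 merged regions were higher in Th2 or Treg than in naive cells (11.6%, against 13.7% of all merged regions) and 40 were lower (17.8%, against 12.3%). A further 9 separated Treg from Th2 cells with naive cells listed against neither (4.0%, against 5.56%). The remaining 150 were listed only in comparisons with other effector cells (66.7%, against 68.5%). That last share was close to the background. For 14 of the 31 genes it was the only kind of comparison that listed them (45.2%, background 36.3% of all genes). Tet2, Hdac4 and Arid1b appeared in all 6 tables (3 of 31 genes, 9.68%, background 4.07%).

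Position within the locus differed with direction. Of the 21 regions more open in Th2 than in naive cells, 17 lay outside genes (81.0%, against 41.4% of that table's regions), and 13 of these 17 belonged to Eed and Tet2. Of the 31 lower in Th2 than in naive cells, 30 lay inside the gene (96.8%, against 58.9%). For Treg against naive cells the excess of higher regions outside genes was smaller, with 9 of 15 (60.0%, against 40.9% of that table's regions). Of these 9, 5 belonged to Eed. All 18 regions lower in Treg than in naive cells lay inside the gene, against 58.8% of that table's regions. For other effector against naive cells, 83 of 87 lower regions were inside (95.4%, against 59.2%). A region inside or beside a gene was assigned to it by distance alone, and which gene it acts on was not measured.

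**Figure D3:**
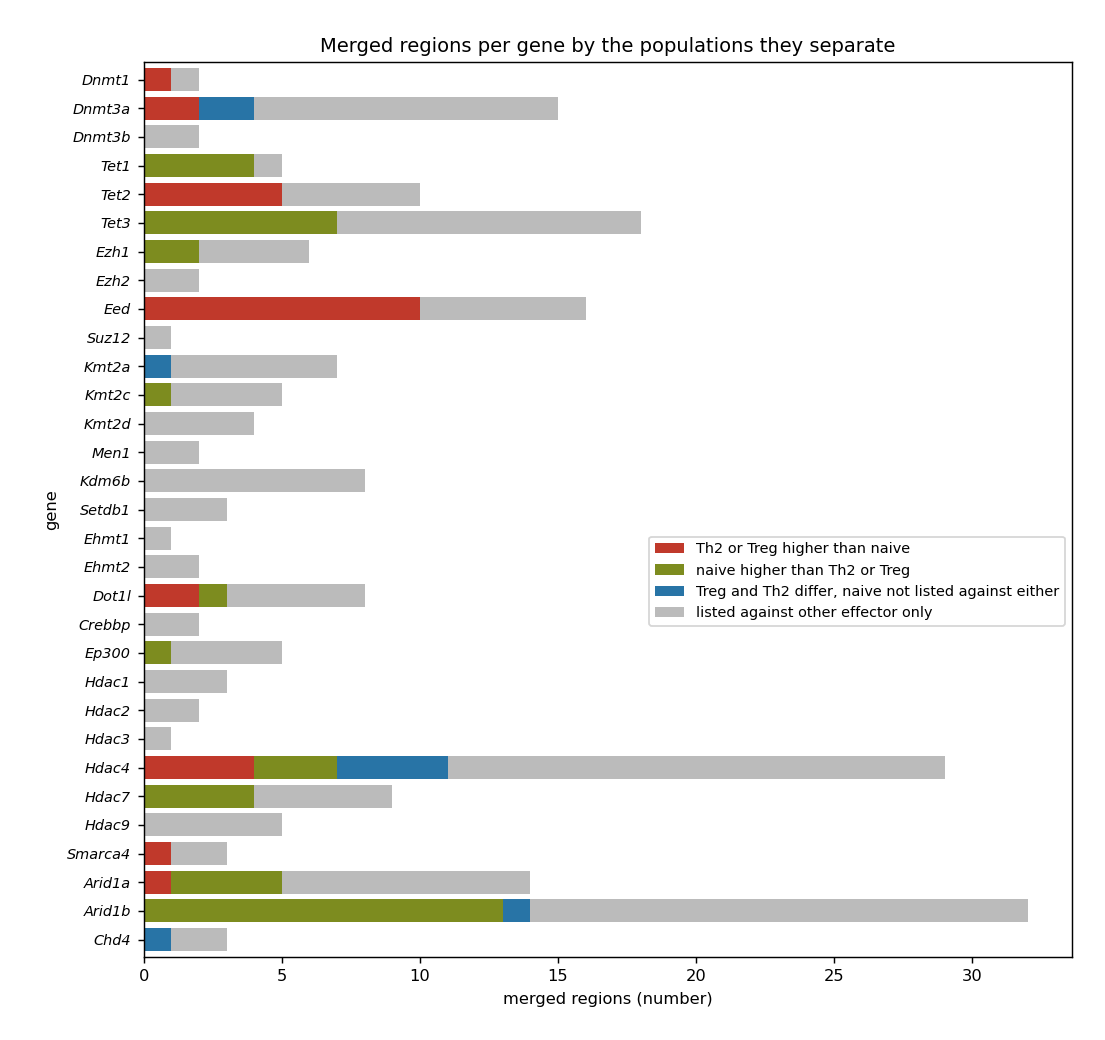
Merged regions of each gene (number, x axis; genes on the y axis in order of role), split by the populations they separate. Grey bars, regions listed against other effector cells only, make up 150 of the 225; red bars (Th2 or Treg higher than naive) are long for Eed, Tet2 and Hdac4, and green bars (naive higher) for Arid1b, Tet3, Tet1, Hdac7 and Arid1a.

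The fold sizes of member regions ran close to those of the whole tables. In the authors' deposited tables the median log2 size was 5.86 for member regions more open in Th2 than in naive cells (range 4.37 to 8.52, table median 5.59) and 5.70 for those lower (3.90 to 8.33, table median 5.28). For Treg against naive cells the medians from the authors' deposited table were 6.93 for regions higher (5.05 to 9.05, table median 5.72) and 5.29 for regions lower (4.19 to 6.68, table median 5.32). The 15 regions higher in Treg cells thus had the median farthest above its table, and 5 of them lay in the Eed cluster. Regions lower in other effector cells had medians in the authors' deposited tables of 5.73 against naive cells (table median 5.41), 5.75 against Th2 cells (table median 5.40) and 5.66 against Treg cells (table median 5.38). For Treg against Th2 cells the medians from the authors' deposited table were 5.71 for regions higher (table median 5.57) and 5.45 for regions lower (table median 5.50).

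**Figure D4:**
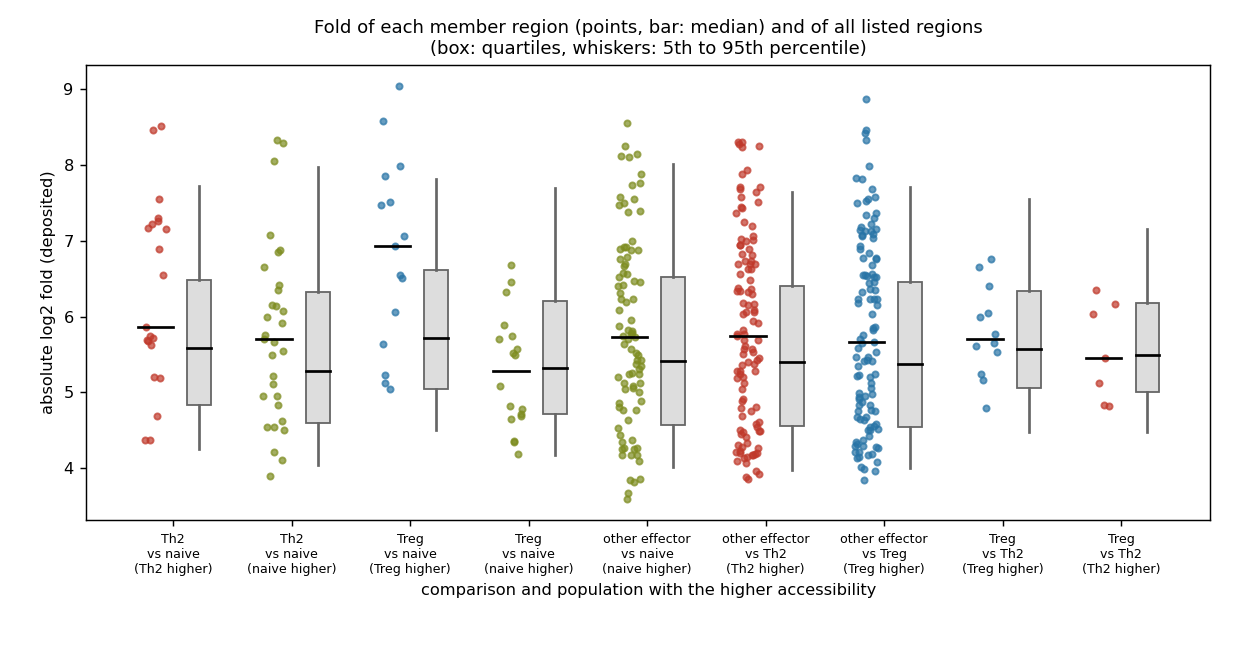
Absolute log2 fold of each member region as deposited (y axis; points, with a bar at the median) beside all regions of the same table and direction (box, quartiles; whiskers, 5th to 95th percentile), by comparison and higher population (x axis). The member medians lie within the boxes of their tables except for Treg higher than naive, where the median is 6.93 and the largest fold 9.05.

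Among the DNA methyltransferases, Dnmt3a, which lays down new methylation, held most of the regions. It had 14 regions lower in other effector than in Th2 cells, 5 lower than in Treg cells and 4 lower than in naive cells. In the authors' deposited table the largest fold against Th2 cells was 8.28, at chr12:3870831-3871644 inside the gene, where the fold against Treg cells was 7.13. Against naive cells it was 8.26 in the authors' deposited table, at chr12:3806249-3808451. Dnmt3a was also among the few genes with a region lower in Treg than in Th2 cells, at chr12:3862280-3862535 and chr12:3855688-3856452, where the log2 sizes were 6.17 and 4.83 in the authors' deposited table. Both of its regions more open in Th2 than in naive cells, 1 inside the gene and 1 beyond its 5′ boundary, stood at 6.55 and 5.63 on the log2 scale in the authors' deposited table, and no region was listed for Treg against naive cells. Dnmt1, the enzyme that copies methylation at replication, had 1 region near its 5′ boundary (chr9:20961577-20961864) that was more open in Th2 than in naive cells by 5.75 and in Treg than in naive cells by 6.51 in the authors' deposited tables. Dnmt3b, a relative of Dnmt3a, was listed only against other effector cells, with 5.29 against Th2 and 4.37 against Treg at its start in the authors' deposited tables.

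The 3 TET genes did not run the same way. Tet2 had 4 regions in which Th2 cells exceeded naive cells, 3 in which Treg cells did and none the other way, whereas Tet1 had 3 and Tet3 5 regions lower in Th2 than in naive cells and none higher. TET enzymes oxidise methylcytosine, a step towards its removal, and Tet2 loss is known to disturb T cell cytokine expression in mice. The Tet2 region with the largest fold (chr3:133622892-133623768) lay 78194 bp upstream of the gene and was more open in Th2 than in naive cells by 8.52 and in Treg than in naive cells by 7.07 in the authors' deposited tables. At nearly the same region (from 133622945) other effector cells were lower than Th2 cells by 8.31 in the authors' deposited table. A region inside Tet2, at chr3:133515153-133515790, was more open in Th2 than in naive cells by 5.86 and in Treg than in naive cells by 7.51 in the authors' deposited tables. Treg and Th2 cells also differed at this locus, in both directions. The region 26757 bp downstream (chr3:133436445-133437396) was higher in Treg than in Th2 cells by 6.65 and than in naive cells by 7.99 in the authors' deposited tables, and the region 38146 bp upstream (chr3:133582716-133583848) was lower in Treg than in Th2 cells by 5.45. The 100 kb limit left out further regions that also had Tet2 as the nearest gene. The first of them lay 114886 bp upstream, with 5.64 for Th2 over naive cells in the authors' deposited table, just outside the limit, while the farthest region of any member inside it lay 85958 bp from Arid1b.

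Tet1 and Tet3 carried their naive regions within the gene. Tet1 had 5 regions lower in other effector than in naive cells, and 3 of its regions were lower in Th2 than in naive cells, by 8.06, 6.08 and 6.88 in the authors' deposited table. At the last of these the Treg cells stood apart from Th2 cells, with accessibility higher in Treg than in Th2 cells by 5.65 in the authors' deposited table (chr10:62865215-62866103). Tet3 had 12 regions lower in other effector than in naive cells, 5 lower in Th2 (3.90 to 6.85) and 4 lower in Treg than in naive cells (4.35 to 6.68) in the authors' deposited tables. The region chr6:83421556-83422221 was lower than in naive cells in all of the other 3 populations, by 6.85 in Th2, 6.68 in Treg and 6.67 in other effector cells, in the authors' deposited tables. A second region, chr6:83428144-83429091, was lower in Treg than in naive cells by 6.46 in the authors' deposited table. At its 5′ boundary (chr6:83455510-83457256) Tet3 looked like most of the genes, lower in other effector than in Th2 cells by 7.43 and than in Treg cells by 7.22 in the authors' deposited tables, with no entry against naive cells. Inside the gene, the region over its RefSeq start (chr6:83440832-83441997) was of that kind too. There other effector cells were lower than Th2 cells by 6.33 and than Treg cells by 6.46 in the authors' deposited tables. Away from that start, chr6:83412991-83413338 was lower in other effector than in Th2 cells by 5.94 and than in Treg cells by 4.99 in the authors' deposited tables.

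The Polycomb genes encode the complex that trimethylates lysine 27 of histone H3: Ezh1 and Ezh2 are its alternative enzymes, and Eed and Suz12 its core partners. Eed had the most regions more open in Th2 than in naive cells of any member, 10 of the 21, and also the most higher in Treg than in naive cells, 5 of 15. All of these lay upstream of the gene, between Eed and Picalm, an endocytosis gene whose near end is 149216 bp from Eed. The cluster of 15 merged regions ran over 56830 bp (chr7:89998507-90055336), from 17736 to 74109 bp from Eed, and held 38 of the 40 Eed entries. In the authors' deposited tables the folds of Th2 over naive cells ran from 4.37 to 8.47 and those of Treg over naive cells from 5.05 to 9.05. The largest folds stood at different regions: the largest Th2 fold (8.47, with 7.86 for Treg) was at chr7:90039188-90040031, and the largest Treg fold (9.05, with 6.90 for Th2) was at chr7:90006919-90007815, all in the authors' deposited tables. At the Treg-led region other effector cells were lower than Treg cells by 8.87, and at chr7:90033929-90034503 the fold of Th2 over naive cells was 7.55, in the authors' deposited tables. No Eed region was listed for Treg against Th2 cells or for other effector against naive cells. The Eed start itself (chr7:89980154-89981396), whose promoter is printed above, was lower in other effector than in Th2 cells by 7.94 and than in Treg cells by 7.99 in the authors' deposited tables.

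The other Polycomb genes had few regions. The Ezh2 start (chr6:47594111-47595672) was lower in other effector than in Th2 cells by 7.58 and than in Treg cells by 6.68 in the authors' deposited tables, and the Suz12 start was lower in other effector than in Th2 cells by 6.48. Ezh1 differed from them in having regions lower than in naive cells. Its region at chr11:101218524-101219377 was lower than in naive cells by 5.70 in Th2, 5.52 in Treg and 5.52 in other effector cells in the authors' deposited tables.

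Among the histone H3 lysine 4 methyltransferases, Kmt2a (MLL1) stood out by population. It had 7 regions lower in other effector than in Treg cells and 0 lower in other effector than in Th2 cells. In the authors' deposited table the folds against Treg cells ran from 4.17 to 7.53, with 7.09 at the start (chr9:44880967-44881868). A direct comparison listed 1 of these, just upstream (chr9:44882708-44882885), as higher in Treg than in Th2 cells by 5.77 in the authors' deposited table, and whether the others differed between Treg and Th2 cells is not given by the tables. Kmt2c had a start region lower in other effector than in Th2 cells by 7.71 and than in Treg cells by 6.53 in the authors' deposited tables, and 1 internal region lower in Th2 and in Treg than in naive cells. Kmt2d and Men1, which encodes menin, a partner of the MLL enzymes, were listed only against other effector cells, and in the authors' deposited table they reached 6.77 and 7.16 against Treg cells. The Kmt2d and Men1 regions at the gene ends also fell within 1 kb of Prkag1 and Map4k2.

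Kdm6b encodes JMJD3, which removes methylation from lysine 27 of histone H3. The gene is 21860 bp long, shorter than the median member but not than the median of all genes. It was dense in regions, with 59.5 entries inside per 100 kb, a region counting once for each comparison that lists it. There were 8 merged regions in all. All were listed against other effector cells and none in any other comparison, with 7 lower than in Th2 cells (3.89 to 8.31) and 7 lower than in Treg cells (4.75 to 8.33) in the authors' deposited tables. The region chr11:69410222-69411108 gave the largest fold in both, 8.31 against Th2 and 8.33 against Treg cells, in the authors' deposited tables. At chr11:69401258-69401619 the folds lay farthest apart, 3.89 against Th2 and 6.94 against Treg cells, in the authors' deposited tables, but no direct comparison of Treg with Th2 cells listed it. The outermost region, at 1 boundary of Kdm6b, also lay within 1 kb of Dnah2.

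The histone H3 lysine 9 methyltransferase genes Setdb1, Ehmt1 (GLP) and Ehmt2 (G9a) were listed only against other effector cells, with 2, 0 and 1 regions lower than in Th2 cells and 2, 1 and 2 lower than in Treg cells. Their largest fold was 6.63 in the authors' deposited table, against Th2 cells at the Ehmt2 start (chr17:34898166-34899372). Dot1l, the histone H3 lysine 79 methyltransferase, differed from them in having regions in both directions against naive cells. Its region chr10:80758709-80759028 was more open in Th2 than in naive cells by 7.17 and in Treg than in naive cells by 5.64 in the authors' deposited tables. A second region (chr10:80763335-80764061) was more open in Th2 than in naive cells by 7.22, and another near the 3′ end (chr10:80792054-80792902) was lower in Th2 by 5.11 and in Treg by 5.71, in the authors' deposited tables.

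The acetyltransferase genes Crebbp and Ep300 encode the paralogues CBP and p300, which acetylate histones at enhancers. The Ep300 start (chr15:81584934-81586489) was lower in other effector than in Th2 cells by 6.90 and than in Treg cells by 7.50, and the Crebbp start was lower than in Treg cells by 7.08, in the authors' deposited tables. An Ep300 region outside the gene (chr15:81561992-81562643) was lower in Th2 than in naive cells by 5.55, and a slightly shorter version of it was higher in Treg than in Th2 cells by 5.16, in the authors' deposited tables. Treg cells were not listed against naive cells there.

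Among the deacetylase genes, Hdac4 and Hdac7 had regions in comparisons without other effector cells and the other 4 had none. Hdac1, Hdac2 and Hdac3, the class I enzymes found in many corepressor complexes, had 7 entries in all, each against other effector cells, and a region at 1 boundary of Hdac1 (chr4:129542347-129543304) led with 7.51 against Th2 and 7.04 against Treg cells in the authors' deposited tables. The Hdac3 region, lower in other effector than in Th2 cells by 6.37 in the authors' deposited table, also lay within 1 kb of Rell2. The class IIa genes Hdac4, Hdac7 and Hdac9, whose products shuttle between nucleus and cytoplasm on calcium and kinase signals, had 74 entries in 43 merged regions, of which Hdac4 had 53 entries, Hdac7 16 and Hdac9 5. Hdac9, by far the longest of them, was like the class I genes listed against other effector cells only, with 0.575 entries inside per 100 kb, against 7.53 for Hdac1, 16.5 for Hdac4 and 30.9 for Hdac7.

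Hdac4 alone held 5 of the 12 member regions higher in Treg than in Th2 cells, all inside the gene, with folds of 4.80 to 6.76 in the authors' deposited table. The largest was at chr1:92103424-92103800. Against naive cells the leading Treg region was chr1:92118982-92119834, higher in Treg cells by 8.59 in the authors' deposited table, and other effector cells were lower than Treg cells there by 8.42. Th2 cells had their own site outside the gene: regions at chr1:92216350-92216733 and chr1:92216921-92217198 were lower in Treg than in Th2 cells by 6.35 and 6.03 in the authors' deposited table, and the first was more open in Th2 than in naive cells by 5.19. Hdac4 also had 12 regions lower in other effector than in naive cells, led by chr1:92079809-92080609 with 8.56 in the authors' deposited table. At that site other effector cells were lower than Treg cells too, and naive cells were listed against neither Th2 nor Treg cells. Elsewhere inside the gene, 3 regions were lower in Th2 (4.11 to 4.95) and 2 lower in Treg (4.65 to 4.78) than in naive cells, in the authors' deposited tables. Hdac4 therefore carried regions higher in Treg, in Th2 or in naive cells than in another population, at different places of 1 locus.

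Hdac7, the class IIa gene most noted for its role in thymocytes, had no region lower in other effector than in Th2 cells. It had 7 regions lower in other effector than in naive cells (4.26 to 7.77), 3 lower in Th2 than in naive cells (5.67 to 6.16) and 3 lower in other effector than in Treg cells (5.87 to 8.47), in the authors' deposited tables. Near its start the region chr15:97843034-97843782 was lower in Th2 than in naive cells by 6.14, and the part chr15:97843187-97843638 was higher in Treg than in Th2 cells by 6.05, in the authors' deposited tables. Th2 and other effector cells were both the lower population at this site, and Treg cells were not listed against naive cells there. Hdac9 had 5 scattered regions, the largest 4.48 against Th2 cells in the authors' deposited table.

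**Figure D5:**
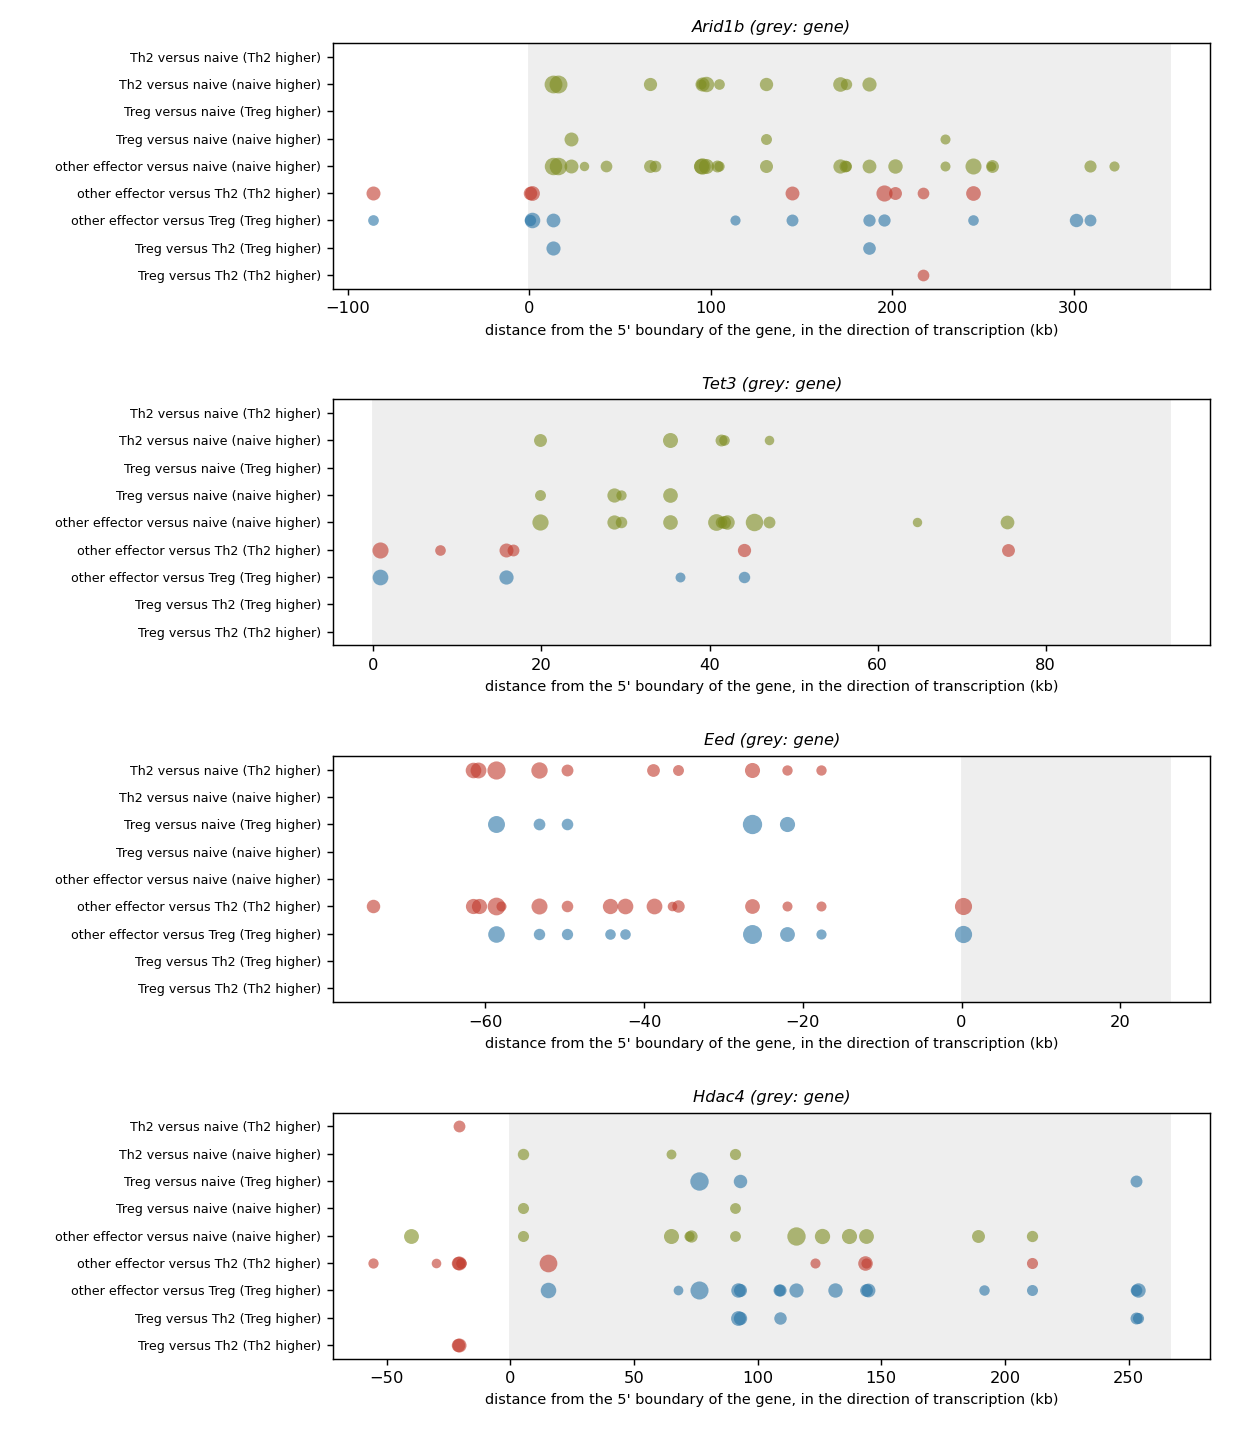
Regions of Arid1b, Tet3, Eed and Hdac4 by distance of the midpoint from the 5′ boundary of the gene (kb, x axis; grey, the gene) in each comparison and direction (y axis); dot area grows with the log2 size. Eed regions more open in Th2 than in naive cells lie 17736 to 61567 bp and those higher in Treg than in naive cells 21953 to 58633 bp upstream of the gene, while regions lower than in naive cells lie inside Arid1b and Tet3, and Hdac4 has both.

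Among the remodellers, Arid1b, a DNA-binding subunit of the BAF complex, was the largest holder of naive regions. It had 11 of the 31 regions lower in Th2 than in naive cells, 3 lower in Treg than in naive cells and 24 of the 87 lower in other effector than in naive cells. Folds in the authors' deposited tables ran from 4.21 to 8.33 for Th2 and from 3.82 to 8.15 for other effector cells, with the largest for both at chr17:5009714-5010384. The largest for Treg cells was 6.32, at chr17:5016657-5017451, in the authors' deposited table. The neighbouring region chr17:5006923-5007687 was lower in Th2 than in naive cells by 8.29, and its first part (to 5007472) was higher in Treg than in Th2 cells by 6.41, in the authors' deposited tables. A second such site, chr17:5180947-5181691, was higher in Treg than in Th2 cells by 5.62 in the authors' deposited table, and for neither was Treg listed against naive cells. Arid1b had no region higher in Th2 or Treg than in naive cells. Its start regions followed the general pattern, lower in other effector than in Th2 cells by 6.06 and 6.74 and than in Treg cells by 4.91 and 7.15 in the authors' deposited tables.

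Arid1a, the alternative subunit to Arid1b, had regions in both directions. One region (chr4:133688227-133688670) was higher in Treg than in naive cells by 6.55, while 2 others were lower in Treg than in naive cells by 5.75 and 5.09 and 2 were lower in Th2 than in naive cells by 4.62 and 5.49, in the authors' deposited tables. Smarca4, the BRG1 ATPase of the same complex, had 1 region 6011 bp upstream (chr9:21609851-21610340) that was more open in Th2 than in naive cells by 5.72 and in Treg than in naive cells by 7.47 in the authors' deposited tables. Its start was lower in other effector than in Th2 cells by 5.29 and than in Treg cells by 6.84 in the authors' deposited tables. Chd4, the ATPase of the NuRD complex, had 1 internal region lower in Treg than in Th2 cells by 4.82 in the authors' deposited table.

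Regions of marker genes of other cell types were also listed, and their counts stand here beside the background over all genes. Of 5 markers of CD8 and NK cells, 4 had regions lower in other effector than in naive cells (11 regions, background 30.3%), 1 lower than in Th2 cells (4 regions, background 55.4%) and 3 lower than in Treg cells (6 regions, background 51.5%). Of 5 myeloid genes the counts were 3 (11 regions), 4 (15 regions) and 3 (6 regions) in the same comparisons, and 2 had regions lower in Treg than in Th2 cells (2 regions, background 10.4%). Myeloid genes with a region more open in Th2 than in naive cells numbered 2 (2 regions, background 13.7%), and 1 had a region lower (1 region, background 11.8%). For Treg against naive cells, 1 myeloid gene had a region higher (1 region, background 9.7%) and 2 had one lower (2 regions, background 8.45%). Of 4 lung epithelium genes, the counts lower in other effector cells were 1 against naive (4 regions), 2 against Th2 (4 regions) and 2 against Treg cells (2 regions). These 4 genes had 0 regions in every comparison of the other 3 populations. General T cell genes had regions lower in other effector than in naive cells at 5 of 5, lower than in Th2 cells at 2 and lower than in Treg cells at 4, and regions lower in Th2 than in naive cells at 4 of 5 (8 regions) and in Treg than in naive cells at 1 (2 regions). Markers of CD8 and NK cells were lower than in naive cells at 2 of 5 genes in Th2 (6 regions, background 11.8%) and in Treg cells (2 regions, background 8.45%). They were higher than in naive cells at 1 gene in Th2 (1 region, background 13.7%) and 0 in Treg cells. Between the lung populations, 1 was higher in Treg than in Th2 cells (1 region, background 5.71%) and 0 were lower. The part of these in the results above was not tested.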

How the data were processed

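ATAC-seq regions that differed between 4 sorted T helper populations were used in 6 pairwise tables. The differential analysis was made with DiffBind on mm9, per the submitters' processing notes, with versions, aligner, peak caller, normalization and threshold not given in the sources used here. Each deposited value per region was read as a log2 fold from the authors, since the folds of regions in 3 or 4 tables added up as log ratios do (within 0.02 at 996 of 1076 regions in the most frequent cycle of 4 tables). No region in 3 tables tied naive to other effector cells, and the overall sign was read from the naive, Th2 and Treg marker genes, whose directions are thus no separate evidence. Start, end and chromosome are given as GRCm38: 18.0% of 59843 distinct regions were near (1 kb) a RefSeq GRCm38.p6 start, against 2.11% to 2.86% after shifts of 10 to 1000 kb.

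Regions were assigned by midpoint to 21896 protein-coding genes of that annotation (4 member entries fell to a second gene too) and merged across tables at 1 bp of overlap. Assignment was tested on simulated data and overlaps used bedtools 2.31.1, with pandas 2.3.3 in Python 3.11.15. Promoters came from RefSeq. No test was run, because the tables hold no replicate or count. Every member is named, with values for the 3 largest folds and the 3 genes with most regions per table and direction. The genes and lists were chosen with earlier results of these data known. The result of 1 marker list is not reported here. Alternatives tried were the assignment distance, regions inside genes only, larger folds only and other merging.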

Additional observations from a re-analysis of the deposited data

How the results depend on the processing

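The number of the 31 genes listed in each of the 6 comparisons, the 225 merged regions and the 150 of them listed against other effector cells only were recomputed with other assignment distances, with regions inside genes only, with larger folds only and with other merging, and all 32 values stayed within 1.5 times the reported one. Of 75 values for single directions and region counts, 18 moved further. With only regions inside the gene, 3 genes had a region more open in Th2 than in naive cells where the full rule gave 7, and 4 where it gave 7 had one higher in Treg than in naive or than in Th2 cells. Genes with a region lower in Treg than in Th2 cells numbered 5 under the full rule, 3 with regions inside genes and 2 with folds at or above the table's median. Counts upstream of Eed and Tet2 thus rest on the nearest-gene rule. No paired analysis was possible because the tables carry no samples or replicate numbers, and for the same reason no replicate could be left out. Depth per library is unknown.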

Other observations

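Folds of 1 region in different tables often differed by a constant. At the 31 member regions lower than in naive cells in both Th2 and other effector cells with the same coordinates, the size against Th2 minus the size against other effector cells had a median of 0.18, and 22 were within 0.02 of it, in the authors' deposited tables. Over all 4835 such regions the share was 60.3%. At the 13 member regions higher in Treg than in naive and than in other effector cells, the same difference was 0.17 to 0.18 at every one. Such pairs of folds are not separate measurements.

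Tet2 had 3 more regions in the gap beyond 100 kb, the farthest at chr3:133758091-133758745, 213282 bp upstream. It was lower in Treg than in Th2 cells by 6.12, and a slightly longer version of it was more open in Th2 than in naive cells by 6.29, in the authors' deposited tables.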
